A study of Mus musculus with 2 samples.

Results

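Pax2, Pax8, Hnf4a, Emx2, Tfap2b, Tfcp2l1, Sim1 and Mecom are transcription factors that mark the identity of nephron tubule segments, and these 8 genes, of 32227 in the count tables, were described across the cell classes of the thick ascending limb (TAL) and across kidney regions. The genes were taken as a list and not by a rule on their values. The list was chosen with earlier results of these data known. The material was nuclei of male B6 mice labelled as wild type, carrying a tamoxifen-inducible Cre recombinase under the promoter of Slc12a1 (the Na-K-2Cl cotransporter NKCC2) and the INTACT nuclear green fluorescent protein reporter. Both libraries came from such tamoxifen-treated mice, with an age labelled as 12 with no unit. The nuclei were sorted by fluorescence and sequenced by snRNA-Seq. One library was made from the superficial cortex and the other from the remaining tissue, called medulla here, which also held deep cortex. The number of mice behind each library is not given in the sources used here.

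Each region was 1 library, so region and library cannot be told apart, nuclei are not replicates, and no test between groups was possible. Levels are given in CPM, the counts of a gene scaled to a common total for each group. Errors are 95% intervals, exact Poisson for a level and conditional binomial for a ratio of 2 levels, and they cover counting error only. The intervals of 2 levels can overlap while that of their ratio leaves out 1. A ratio was called when it was at least 1.5-fold and its interval lay on the same side of 1. The counts come from the 3′ ends of transcripts in nuclei, so levels were compared between groups and not between genes.

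Among barcodes with at least 10 Slc12a1 counts, macula densa (MD) barcodes had at least 3 counts of Nos1 and Pappa2 together. Of the rest, those with at least 2 Tmem52b counts were TAL-β, those with at least 2 counts of Tmem207 and Gpc5 together were TAL-γ, and all others were TAL-α. The cortex library held 2824 TAL-α, 1493 TAL-β, 248 TAL-γ and 653 MD barcodes, and the medulla library held 3776, 571, 3542 and 78. For contrast, 65 cortical and 94 medullary barcodes were proximal tubule (at least 5 counts of Lrp2 and Cubn and at most 2 of Slc12a1). The distal convoluted tubule (DCT) gave 38 and 9 barcodes, which is under the minimum of 50 for a ratio. The libraries held 16457300 and 20947211 counts in 5442 and 8121 barcodes, with medians of 2427 and 2430 counts, and shared no barcode.

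Markers that the class rule did not use followed the names of TAL-α, TAL-β and MD, but were mixed for TAL-γ in cortex. Cldn16, a claudin of the paracellular magnesium path, stood at 188 and 250 CPM in TAL-β of cortex and medulla, against 101 and 60.2 CPM in TAL-α. The potassium channel gene Kcnj10 stood at 139 and 170 CPM in TAL-β, and at 144 and 109 CPM in TAL-γ, against 17.8 and 13.2 CPM in TAL-α. Ptgs2, the prostaglandin synthase of the macula densa, stood at 85.8 and 126 CPM in MD barcodes and at most at 4.14 CPM in the other TAL classes. The prostaglandin receptor gene Ptger3, a TAL-α marker, stood at 1207 and 1951 CPM in TAL-α against 157 and 354 CPM in TAL-β, but medullary TAL-γ held it at 1488 CPM too. The cortical barcodes that the rule placed in TAL-γ carried TAL-β markers. Cldn16, Kcnj10 and Pth1r summed to 752 CPM in them, near the 894 CPM of cortical TAL-β and above the 206 CPM of medullary TAL-γ. The TAL-γ markers Cldn10, Kcnj10 and Kcnt1 summed to 344 CPM in the same barcodes. That sum was 264 CPM in cortical TAL-β, 252 CPM in cortical TAL-α and 496 CPM in medullary TAL-γ. Kcnj10 is in both lists. These markers did not decide between TAL-β and TAL-γ, so the name TAL-γ stands in cortex for the rule alone. When each deposited cluster was given its most frequent class, 0 cortical barcodes fell in TAL-γ. Medullary TAL-β barcodes had a median of 3 counts of Tmem207 and Gpc5, above the TAL-γ minimum, against 0 in cortical TAL-β. Those that also met the TAL-γ minimum were TAL-β because the rule set that class first. Markers of other cell types were higher in cortical than in medullary TAL barcodes. The summed level of 4 DCT markers was 191 against 24.9 CPM and that of 4 endothelial markers 99.3 against 30.4 CPM, while the lists for collecting duct, thin limb, stroma, podocytes and immune cells summed to at most 40.5 CPM. Among the TAL classes the DCT sum was highest in TAL-β, with 377 CPM against 87.9 CPM in TAL-α of the cortex library. For the medulla library these sums were 211 and 6.61 CPM. Tmem52b, the gene that sets TAL-β, had medians of 2.5 and 4 counts in the cortical and medullary DCT barcodes. No gene of these lists was at 0 over all TAL barcodes of a library. The part of the lists in the results, and that of DCT transcripts in the TAL-β ratios, was not tested. Of the TAL barcodes, 11.1% in cortex and 1.64% in medulla also carried at least 5 counts of the proximal receptor genes Lrp2 and Cubn. Some of the results that moved with these barcodes are given below with and without them, and others only with them.

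By way of background, Pax2 and Pax8 are paired box factors required early for the nephric lineage, and both stay on in parts of the adult tubule. Hnf4a is the nuclear receptor that drives the proximal tubule programme. Sim1 is a bHLH-PAS factor, Tfap2b belongs to the AP-2 family and acts in the distal nephron, Tfcp2l1 is a grainyhead-like factor known from the distal tubule and collecting duct, Mecom (Evi1) is a zinc finger factor involved in segmentation of the nephron, and Emx2 is a homeobox factor of the early ureteric bud.

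All 8 genes were matched by identifier to the GENCODE M39 annotation of GRCm39. Pax2 lies at chr19:44735057-44826703 on the plus strand and Sim1 at chr10:50770826-50865248 on the plus strand. Tfcp2l1 lies at chr1:118555636-118612915 and Tfap2b at chr1:19279138-19309069, both on the plus strand. Hnf4a lies at chr2:163348728-163414830 on the plus strand, Pax8 at chr2:24309418-24365617 on the minus strand, Emx2 at chr19:59446804-59453789 on the plus strand and Mecom at chr3:30005439-30602157 on the minus strand. Antisense genes overlap Emx2, Hnf4a, Mecom, Pax2 and Pax8. Hnf4aos held more counts than Hnf4a over all barcodes, 4302 against 1562 in cortex and 1437 against 519 in medulla, and Emx2os held more than Emx2, 2104 against 495 and 2190 against 552. If strand was not used in the counting, which is not given in the sources used here, reads of these pairs could not be told apart. The antisense genes of Pax2, Pax8 and Mecom held far fewer counts than their partners.

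The 200 bases upstream of the annotated canonical start are shown for Pax2 and Tfcp2l1, which differed between regions in opposite directions, and for Hnf4a, whose counts went with proximal markers. Capitals mark matches on either strand to the AP-2 palindrome GCCNNNGGC or the HNF1 half-site GTTAAT. Sim1, which was higher in medulla together with Pax2, is shown as the 30 bases around its only match to the core TGGAAA of the NFAT family, because its window meets an exon of other Sim1 transcripts. The windows lie at chr19:44744284-44744483 (Pax2), chr1:118555436-118555635 (Tfcp2l1), chr2:163388869-163389068 (Hnf4a) and chr10:50771619-50771648 (Sim1), all on the plus strand of GRCm39.
Pax2: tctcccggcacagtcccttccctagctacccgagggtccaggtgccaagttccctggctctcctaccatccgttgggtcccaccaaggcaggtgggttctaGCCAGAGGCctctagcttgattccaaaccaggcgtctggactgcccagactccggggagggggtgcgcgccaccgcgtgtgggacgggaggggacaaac
Tfcp2l1: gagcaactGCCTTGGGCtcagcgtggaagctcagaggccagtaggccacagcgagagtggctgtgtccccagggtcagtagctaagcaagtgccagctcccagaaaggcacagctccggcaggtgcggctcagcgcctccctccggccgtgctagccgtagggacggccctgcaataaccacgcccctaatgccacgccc
Hnf4a: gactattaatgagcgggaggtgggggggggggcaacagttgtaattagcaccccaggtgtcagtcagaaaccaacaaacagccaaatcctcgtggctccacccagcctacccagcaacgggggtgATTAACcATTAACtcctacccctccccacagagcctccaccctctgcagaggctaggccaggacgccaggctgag
Sim1: aaccagaggagtTGGAAAacaaacgtcggg
The AP-2 palindrome was found in 3 of the 8 members' windows (Pax2, Tfcp2l1 and Emx2) and in 11.4% of 21297 windows of the same length. The HNF1 half-site was found in the Hnf4a window of the members, where it occurs 2 times, and in 4.82% of all windows. TGGAAA was found in the Sim1 window of the members and in 15.0% of all windows. A match is a description of letters and not of a bound site.

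Between TAL and proximal barcodes the factors fell into sets of opposite direction. Mecom, Tfap2b, Sim1, Tfcp2l1 and Pax2 were higher in TAL in both libraries, and Hnf4a and Pax8 were higher in proximal barcodes in both. In cortex 7 of 8 members were called, beside 27.7% of all genes tested, and in medulla 8 of 8, beside 34.9%. The median log2 ratio of TAL over proximal was 1.59 for the members against 0.03 for all genes in cortex, and 2.37 against 0.11 in medulla.

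Tfap2b was nearly absent from proximal barcodes. TAL barcodes held it at 573 CPM (561 to 585) in cortex and at 668 CPM (657 to 679) in medulla. Proximal barcodes held 6 Tfap2b counts in cortex, or 17.6 CPM (6.45 to 38.3), and 1 count in medulla. In cortex TAL exceeded proximal barcodes 32.6-fold (15.0 to 88.9), and in medulla 302-fold (54.2 to 11919), so the size of the medullary ratio was poorly fixed.

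Mecom had a similar pattern at a wide range of levels. TAL barcodes stood at 4562 CPM (4529 to 4596) in cortex and at 5586 CPM (5554 to 5619) in medulla, against 220 CPM (173 to 275) and 26.6 CPM (13.7 to 46.4) in proximal barcodes. The ratios were 20.8 (16.6 to 26.4) and 210 (120 to 407). Mecom was also high in the few DCT barcodes, at 6429 CPM (5936 to 6952) in cortex and 5341 CPM (4435 to 6377) in medulla.

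Sim1 in TAL stood at 471 CPM for cortex and 1065 CPM for medulla, against 46.9 and 79.7 CPM in proximal barcodes. These are ratios of 10.0 (6.18 to 17.6) and 13.4 (9.65 to 19.1). Tfcp2l1 stood at 772 and 503 CPM in TAL against 179 and 106 CPM, ratios of 4.32 (3.36 to 5.65) and 4.73 (3.57 to 6.42). The 38 cortical DCT barcodes held Tfap2b at 276 CPM (182 to 402), Tfcp2l1 at 440 CPM (319 to 593) and Sim1 at 389 CPM (275 to 534), between the proximal level and that of all TAL barcodes for each.

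The 2 paired box genes differed in direction. In TAL, Pax2 stood at 428 CPM for cortex and 1139 CPM for medulla, against 232 and 202 CPM in proximal barcodes, ratios of 1.85 (1.48 to 2.34) and 5.65 (4.60 to 7.02). Pax8 stood at 239 and 327 CPM in TAL against 551 and 689 CPM in proximal barcodes, ratios of 0.435 (0.375 to 0.506) and 0.475 (0.424 to 0.533). Taken as a ratio within the same barcodes, Pax2 counts over Pax8 counts were 1.79 (1.72 to 1.86) in cortical TAL and 3.49 (3.39 to 3.58) in medullary TAL. They were 0.420 (0.319 to 0.549) in cortical proximal and 0.293 (0.229 to 0.371) in medullary proximal barcodes. As an alternative, TAL barcodes with at least 5 counts of Lrp2 and Cubn, or of the DCT gene Slc12a3, were left out. Cortical TAL then held 5409 Pax2 and 2136 Pax8 counts, and medullary TAL 22733 and 6182. The ratio differed less between the regions without those barcodes. This ratio depends on how well each gene's 3′ end was captured, so its absolute value carries no meaning, but the groups can be set beside each other. In medulla the ratio was 3.32 (3.19 to 3.46) in TAL-α and 3.77 (3.63 to 3.92) in TAL-γ against 2.43 (2.16 to 2.74) in TAL-β. In medullary MD barcodes it was 2.51 (1.73 to 3.70), which overlapped each of those intervals.

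Emx2 was low throughout. It lay between 18.1 and 37.2 CPM in all TAL classes, with 5 counts (14.7 CPM) in cortical and 37 counts (81.9 CPM, 57.7 to 113) in medullary proximal barcodes. TAL over proximal, the cortical ratio of 2.10 (0.892 to 6.49) had an interval that held 1, and the medullary ratio was 0.308 (0.220 to 0.442).

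**Figure D1:**
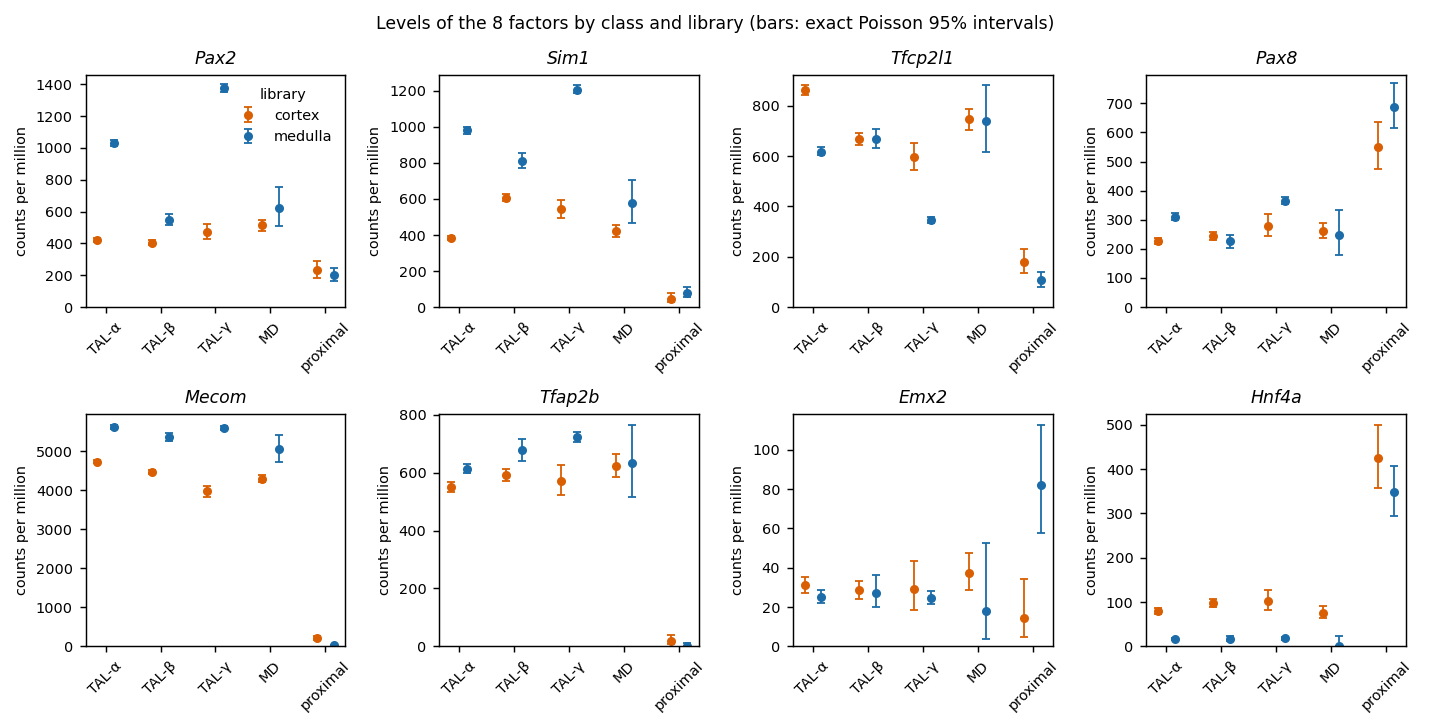
Levels of the 8 factors in CPM (vertical axes, from 0) in TAL-α, TAL-β, TAL-γ, MD and proximal barcodes of the cortex (orange) and medulla (blue) libraries, with exact Poisson 95% intervals. Pax2 and Sim1 reach 1375 and 1208 CPM in medullary TAL-γ, Tfcp2l1 is lowest among TAL classes there at 346 CPM, and Hnf4a stays at or below 103 CPM in every TAL class against 425 and 348 CPM in proximal barcodes.

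Per nucleus, Mecom was detected in 99.6% of cortical and 99.9% of medullary TAL barcodes, against 23.1% and 12.8% of proximal barcodes. The proximal barcodes were deeper, with medians of 3662 and 4623 counts against 2421 and 2426 in TAL. Tfap2b was detected in 73.0% and 74.5% of TAL barcodes against 6.15% and 1.06% of proximal barcodes, and Sim1 in 62.5% and 82.8% against 9.23% and 20.2%. With each barcode thinned to 1000 counts, Mecom was still detected in 96.6% and 98.9% of TAL barcodes. Pax2 was then detected in 34.3% of cortical and 60.3% of medullary TAL barcodes, Sim1 in 35.5% and 60.4%, and Tfcp2l1 in 52.3% and 34.9%. Barcodes with both Pax2 and Pax8 counts, after thinning, made up 6.38% of cortical and 16.9% of medullary TAL, and multiplying each gene's own share gives 6.13% and 15.1%.

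Hnf4a in TAL barcodes moved with proximal transcripts. It stood at 86.4 CPM (81.9 to 91.2) in cortical TAL and at 17.0 CPM (15.3 to 18.9) in medullary TAL, that is at 20.3% (17.1 to 24.3) and 4.90% (4.05 to 5.96) of the level in the proximal barcodes of the same library. The 8 proximal markers examined in the same way stood at 14.2% to 24.5% of their proximal level in cortex and at 2.05% to 7.77% in medulla. Slc34a1, the sodium phosphate cotransporter, stood at 20.1% and 5.51%. The Hnf4a percentages lay inside both ranges. None of the 8 markers was at 0 in any TAL class of either library, and their summed level ranged from 1773 CPM in MD to 3371 CPM in TAL-γ in cortex and from 373 CPM in TAL-γ to 586 CPM in TAL-β in medulla.

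Grouping the TAL barcodes by their Lrp2 and Cubn counts separated Hnf4a widely. In cortex, it stood at 11.03 CPM (9.13 to 13.2) in the 4317 barcodes with 0 such counts, at 71.7 CPM (53.7 to 93.7) with 1 to 2, at 226 CPM (170 to 294) with 3 to 4, and at 282 CPM (266 to 299) in the 579 barcodes with 5 or more. In medulla the corresponding levels were 4.86 CPM (3.91 to 5.96), 12.8 CPM (4.72 to 28.0), 182 CPM (49.6 to 467) and 265 CPM (233 to 300). Pax8 also went up with these counts, from 183 to 398 CPM in cortex and from 320 to 498 CPM in medulla between 0 and 5 or more. Tfap2b went the other way, from 675 to 306 CPM and from 687 to 256 CPM, as did Mecom, from 5406 to 2301 CPM and from 5763 to 2129 CPM. The barcodes with 5 or more were deeper, with median counts of 6086 and 7158 against 2300 and 2409 with 0. The grouping was chosen after the Hnf4a levels were seen.

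Barcodes that the authors' cell calling had left out carried Hnf4a at 99.6 CPM (89.7 to 110) in cortex and 36.0 CPM (29.1 to 44.0) in medulla. The TAL over left-out ratio was 0.868 (0.772 to 0.977) and 0.473 (0.376 to 0.600) for Hnf4a, while for the other 7 members it lay between 0.985 and 1.29. Proximal genes were split in cortex, with Lrp2 at 1.18 (1.11 to 1.25), Cubn at 1.20 (1.09 to 1.33) and Slc34a1 at 0.640 (0.622 to 0.659). In medulla they had ratios of 0.591, 0.652 and 0.432. The part of free RNA and of joined nuclei in the Hnf4a counts of TAL barcodes was not tested.

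**Figure D2:**
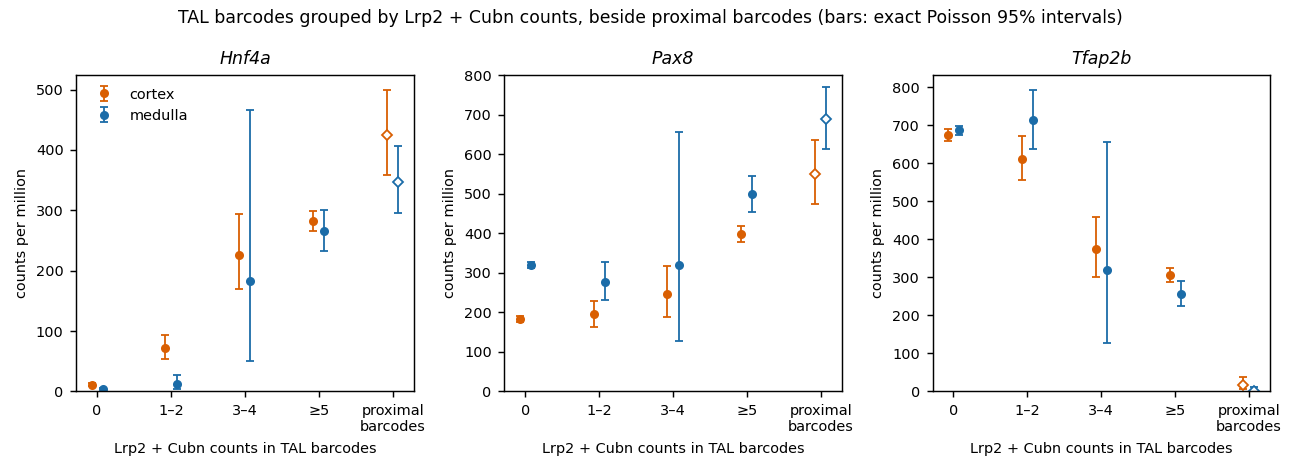
Hnf4a, Pax8 and Tfap2b in CPM (vertical axes, from 0) in TAL barcodes with 0, 1 to 2, 3 to 4 and 5 or more counts of Lrp2 and Cubn (filled circles) and in proximal barcodes (open diamonds), for cortex (orange) and medulla (blue), with exact Poisson 95% intervals. Hnf4a goes from 11.03 to 282 CPM in cortex and from 4.86 to 265 CPM in medulla, and Tfap2b goes from 675 to 306 CPM and from 687 to 256 CPM.

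Between regions, Pax2 and Sim1 were higher in the medulla library in TAL-α and TAL-γ, and Tfcp2l1 was lower in TAL-γ. The TAL-γ groups of the libraries differed in their TAL-β markers (752 CPM in cortex against 206 CPM in medulla), so every TAL-γ ratio between regions sets unlike groups side by side, and the part of this in the ratios was not tested. The TAL-β groups differed as well, with a median of 0 Tmem207 and Gpc5 counts in cortex and 3 in medulla. Of the 8 members, 3 were called in TAL-α, beside 20.1% of all genes, 1 in TAL-β, beside 16.1%, 4 in TAL-γ, beside 20.8%, and 1 in MD barcodes, beside 8.24%. Among all genes most calls were toward cortex, with 21.5% of the calls higher in medulla in TAL-α. Totals scaled by the trimmed mean of M values (TMM) shifted the log2 ratios by 0.11 in TAL-α, 0.08 in TAL-β, 0.20 in TAL-γ and -0.08 in MD barcodes. The share of calls higher in medulla then became 33.3% in TAL-α, against 54.4% instead of 30.8% in TAL-γ and 19.6% instead of 32.5% in MD barcodes. In TAL-α the scaled ratios called 2 members higher and 1 lower, as the unscaled ones did. In TAL-γ they called 3 members higher and 2 lower, in place of 2 and 2. Over all genes, the scaled ratios called 827 higher and 1656 lower of 12585 in TAL-α. In TAL-γ these were 1392 higher and 1168 lower of 10856. The median log2 ratio of the members was 0.20 in TAL-α, 0.10 in TAL-β, 0.36 in TAL-γ and 0.02 in MD barcodes, against -0.07, -0.07, -0.03 and -0.04 for all genes. A gene with 0 counts in a group has no log2 ratio, so the MD value of the members leaves out Hnf4a, which was called lower there.

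In TAL-α, Pax2 stood at 421 CPM (407 to 435) for cortex and 1031 CPM (1010 to 1052) for medulla, a medulla over cortex ratio of 2.45 (2.36 to 2.55). In TAL-γ it stood at 472 CPM (426 to 521) and 1375 CPM (1351 to 1399), a ratio of 2.92 (2.64 to 3.23). In TAL-β the ratio was 1.35 (1.25 to 1.46) and in MD barcodes 1.21 (0.974 to 1.48). With each deposited cluster given its most frequent class, the TAL-β ratio was 0.975 (0.902 to 1.05). The intervals of the TAL-α and TAL-γ ratios did not overlap those of TAL-β and MD barcodes. Pax2 is among the genes from which the study built a medulla score on these libraries, so its direction is not independent evidence.

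Sim1, which was in no such score, moved like Pax2. Its TAL-α level was 383 CPM (370 to 397) for cortex and 982 CPM (962 to 1002) for medulla, a ratio of 2.56 (2.46 to 2.67). In TAL-γ it stood at 544 CPM (495 to 597) and 1208 CPM (1186 to 1231), a ratio of 2.22 (2.02 to 2.44). The ratios in TAL-β and MD barcodes were 1.34 (1.25 to 1.42) and 1.37 (1.10 to 1.70), below the 1.5-fold needed for a call. With the deposited clusters the TAL-β ratio of Sim1 was 1.11.

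Tfcp2l1 went the other way in part of the classes. In TAL-γ it stood at 598 CPM (546 to 653) in cortex and 346 CPM (334 to 358) in medulla, a ratio of 0.579 (0.526 to 0.638), which became 0.708 and lost its call with classes set by other genes (Ptgs2, Sncaip, Cldn16, Cldn10 and Kcnj10). In TAL-α it stood at 864 CPM (844 to 884) and 619 CPM (603 to 635), a ratio of 0.716 (0.691 to 0.742), which was not called. In TAL-β and MD barcodes the ratios were 1.00 (0.938 to 1.07) and 0.993 (0.818 to 1.20).

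Hnf4a was lower in medulla in every TAL class, with ratios of 0.210 in TAL-α, 0.174 in TAL-β and 0.173 in TAL-γ. With the deposited clusters the TAL-β ratio was 0.618 and was not called. Among barcodes with 0 Lrp2 and Cubn counts and at most 1 Slc12a3 count, the ratio was 0.484 in TAL-α and 0.473 in TAL-γ. In MD barcodes Hnf4a had 127 counts (76.2 CPM) in cortex and 0 in medulla. There 0 counts allow up to 18.1 CPM, so Hnf4a was at least 4.21-fold lower by that limit. The interval of the ratio reached up to 0.296, a smaller difference. The proximal marker Lrp2 had ratios of 0.193, 0.199 and 0.140 in TAL-α, TAL-β and TAL-γ, and Slc34a1 had 0.141, 0.192 and 0.0939. Without the TAL barcodes that carried at least 5 counts of Lrp2 and Cubn or of the DCT gene Slc12a3, Hnf4a in cortical TAL stood at 19.5 CPM (17.0 to 22.2) and in medullary TAL at 5.26 CPM (4.29 to 6.38). The TAL-α ratio was then 0.299 (0.210 to 0.421), and in MD barcodes no call was left. The TAL over proximal ratios of Hnf4a were then 0.0458 in cortex and 0.0151 in medulla, in place of 0.203 and 0.0490.

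Leaving out the same barcodes changed other members in TAL-α as well. Pax8 went from a ratio of 1.36 (1.28 to 1.45) to 1.66 (1.55 to 1.78) and Tfcp2l1 from 0.716 to 0.649 (0.626 to 0.673), so that 5 members were called in place of 3. The share of all genes called without these barcodes is not given here. Pax2 stood at 2.31 (2.21 to 2.41) and Sim1 at 2.31 (2.21 to 2.41). Mecom went from 1.19 (1.17 to 1.20) to 1.06 (1.05 to 1.08) and Tfap2b from 1.11 (1.07 to 1.16) to 1.00 (0.960 to 1.04). In TAL-γ, Pax8 then had a ratio of 1.79 (1.48 to 2.18) and was called, and Tfcp2l1 one of 0.506 (0.455 to 0.564).

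**Figure D3:**
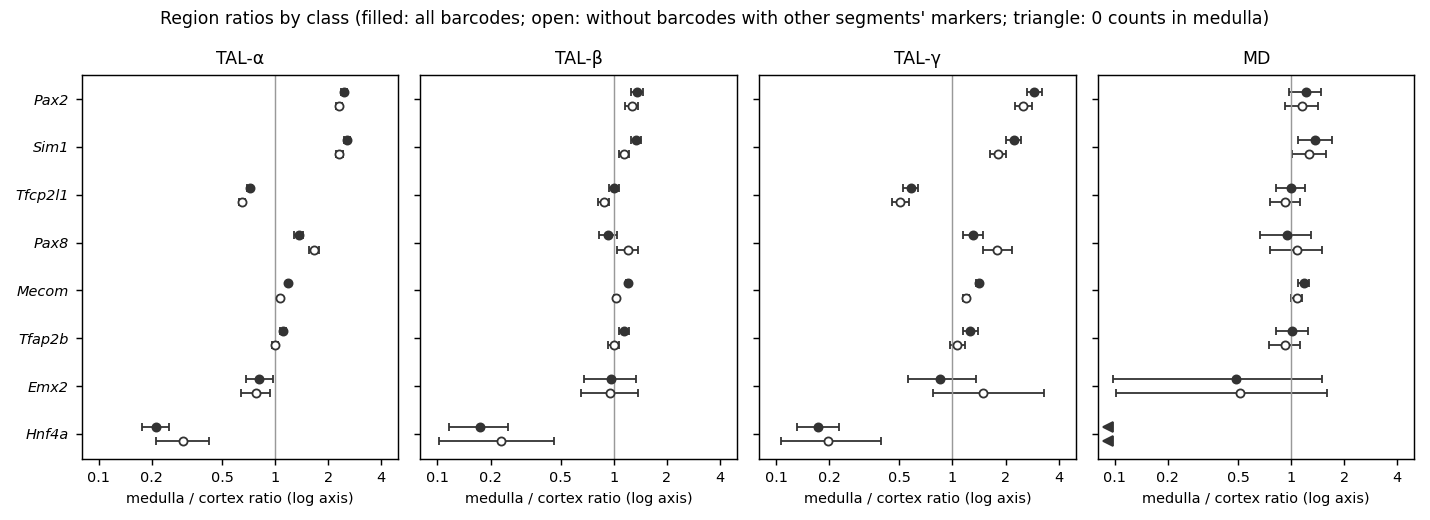
Medulla over cortex ratios (horizontal log axes) of the 8 factors in TAL-α, TAL-β, TAL-γ and MD barcodes with 95% intervals, for all barcodes (filled) and without TAL barcodes carrying proximal or DCT markers (open). Pax2 and Sim1 lie above 1.8 in TAL-α and TAL-γ either way, Tfap2b lies at 1.00 in TAL-α in the open set, and the triangles mark Hnf4a in MD barcodes, with 0 counts in medulla.

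Between classes within a library few members were called. Levels also differed within medullary TAL-α with the place between cortex and medulla, as given below. The part of that place in the class ratios was not tested. In cortex TAL-β against TAL-α gave 1 called member (beside 8.07% of all genes), TAL-γ against TAL-α gave 0 (8.29%), MD against TAL-α gave 0 (19.5%) and TAL-β against TAL-γ gave 0 (5.46%). In medulla the same comparisons gave 1 (9.87%), 1 (6.7%), 2 (16.8%) and 3 (13.8%) called members. TMM-scaled totals moved the share of higher calls among all genes from 53.4% to 36.9% for TAL-γ and from 51.9% to 37.7% for MD against TAL-α in cortex, and from 54.2% to 66.5% for TAL-β against TAL-γ there. In medulla it moved from 56.5% to 30.2% for MD against TAL-α, with a log2 shift of -0.30, and from 57.2% to 46.7% for TAL-β against TAL-γ. For TAL against proximal barcodes it moved from 46.7% to 59.6% in cortex and from 53.1% to 64.0% in medulla, with log2 shifts of 0.20 and 0.21. With classes set by the other genes named above, the cortical counts became 4 for TAL-β against TAL-α and 6 for TAL-β against TAL-γ, and the medullary count for TAL-β against TAL-α became 4. The share of all genes called with those classes is not given here, so these counts cannot be set beside it. Among the members the scaled totals added 1 call each for TAL-γ against TAL-α and TAL against proximal barcodes in cortex. They also added 1 each for MD against TAL-α and TAL-β against TAL-γ in medulla. Over all genes, the scaled calls in these cortical comparisons were 350 higher and 598 lower of 11145, and 2299 and 1556 of 12867. In the medullary ones they were 612 and 1417 of 10775, and 722 and 824 of 11001.

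Pax2 had called class ratios in medulla and none in cortex. In medulla the order was TAL-γ (1375 CPM), TAL-α (1031 CPM), MD (620 CPM, 506 to 752) and TAL-β (548 CPM, 514 to 584), where the last pair overlapped. The TAL-β over TAL-γ ratio was 0.399 (0.373 to 0.426), TAL-β over TAL-α 0.532 (0.497 to 0.568) and MD over TAL-α 0.602 (0.491 to 0.731). TAL-γ over TAL-α was not called, and with classes set by other genes it was 0.975 (0.914 to 1.04), so the order of TAL-γ and TAL-α depends on how the classes are set. That setting placed 280 medullary barcodes in TAL-γ, against 3542 by the rule. In cortex the 4 levels ran from 405 CPM in TAL-β to 514 CPM in MD barcodes, each overlapping its neighbour in the order, while MD over TAL-α was 1.22 (1.13 to 1.32) and short of a call.

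Sim1 changed its order with the region. In cortex it was highest in TAL-β at 608 CPM (587 to 629), which overlapped TAL-γ at 544 CPM (495 to 597), followed by MD barcodes at 422 CPM (392 to 455), which overlapped TAL-α at 383 CPM (370 to 397). TAL-β over TAL-α was 1.59 (1.51 to 1.67). For the overlapping pairs, TAL-β over TAL-γ was 1.12 (1.01 to 1.24) and MD over TAL-α 1.10 (1.01 to 1.20), with neither interval holding 1. In medulla the order was TAL-γ, TAL-α (982 CPM), TAL-β at 812 CPM (771 to 855) and MD at 578 CPM (468 to 706), with no overlap between neighbours. With classes set by other genes TAL-γ over TAL-α was 0.983 (0.919 to 1.05), so this order too depends on the classes. MD over TAL-α was 0.589 (0.477 to 0.720) in medulla.

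Tfcp2l1 was lowest in TAL-γ of the TAL classes in medulla, and in cortex in the barcodes that carry the name TAL-γ by the rule alone. In medulla TAL-γ over TAL-α was 0.560 (0.536 to 0.584), which became 0.794 (0.707 to 0.890) and was no longer called with classes set by other genes, and TAL-β over TAL-γ 1.94 (1.81 to 2.07). MD at 741 CPM (616 to 884), TAL-β at 670 CPM (632 to 709) and TAL-α at 619 CPM overlapped in turn. In cortex TAL-α was highest at 864 CPM, followed by MD at 746 CPM (705 to 789), TAL-β at 668 CPM (646 to 691) and TAL-γ at 598 CPM, where the last pair overlapped. Of the overlapping pairs, TAL-β over TAL-γ in cortex was 1.12 (1.02 to 1.23) and TAL-β over TAL-α in medulla 1.08 (1.02 to 1.15).

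Pax8 in medulla was 365 CPM (353 to 378) in TAL-γ, 310 CPM (299 to 322) in TAL-α, 247 CPM (177 to 335) in MD and 225 CPM (204 to 249) in TAL-β barcodes, and TAL-β over TAL-γ was 0.618 (0.555 to 0.686). In cortex its levels ran from 228 to 280 CPM with overlap between neighbours. Mecom and Tfap2b varied least over the pooled groups, but not over the deposited cortical clusters given below. Over the 8 combinations of class and library Mecom ran from 3971 to 5628 CPM and Tfap2b from 551 to 723 CPM, and no class ratio of either was called. With classes set by other genes TAL-β over TAL-γ in cortex was called for both, at 1.82 for Mecom and 1.92 for Tfap2b. In that setting cortical TAL-γ was 122 barcodes with 920510 counts, against 1001 barcodes with 2788891 counts in TAL-β. Hnf4a for TAL-β over TAL-γ was 0.153 there. The part of depth and of proximal transcripts in these ratios was not tested.

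**Figure D4:**
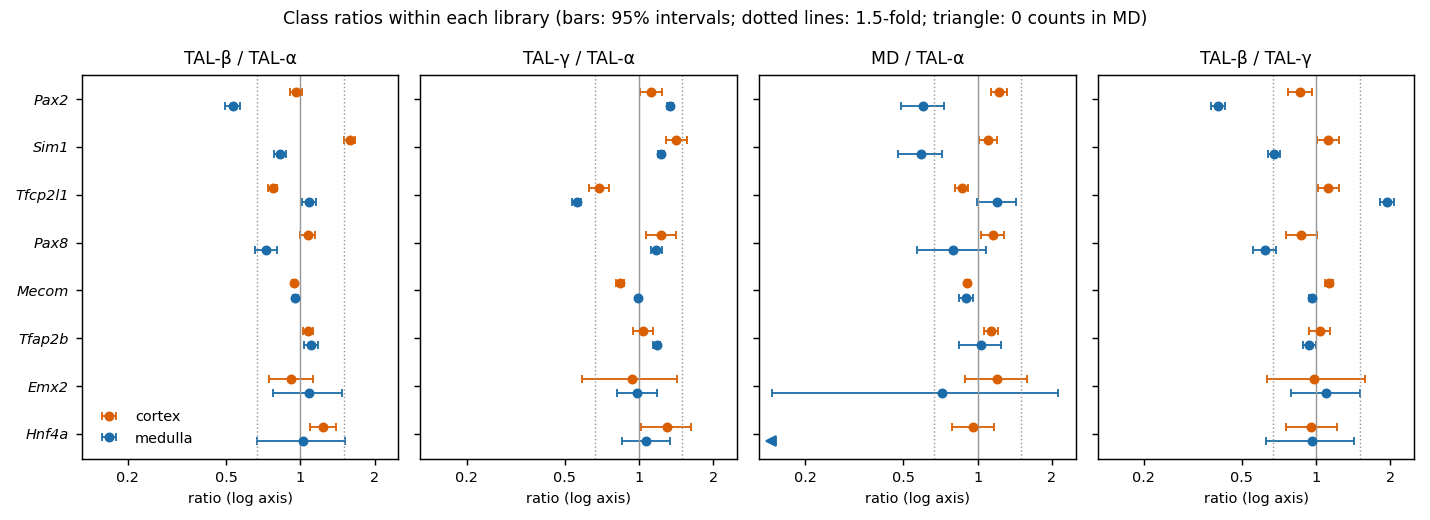
Class ratios (horizontal log axes) of the 8 factors in cortex (orange) and medulla (blue) with 95% intervals, with dotted lines at 1.5-fold in either direction. Most points lie between the dotted lines, and Pax2 lies at 0.399 and Tfcp2l1 at 1.94 for TAL-β over TAL-γ in medulla, while the triangle marks Hnf4a in medullary MD barcodes with 0 counts.

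The same factors were then followed within TAL-α. The barcodes of a library were ordered by the share of 13 cortex score genes in the counts of those and 12 medulla score genes, with Pax2 left out of the score, and cut into tertiles. The study chose the score genes on these libraries, so the order is a description. In the medulla library the median share was 54.3% in the most cortical tertile, 10.0% in the middle and 0% in the most medullary.

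In medullary TAL-α, Pax2 stood at 476 CPM (453 to 500), 1015 CPM (980 to 1050) and 1703 CPM (1655 to 1751) from the most cortical to the most medullary tertile. Sim1 stood at 565, 949 and 1509 CPM and Pax8 at 208, 271 and 474 CPM. Tfcp2l1 ran in the opposite direction, at 962 CPM (929 to 996), 551 CPM (525 to 577) and 288 CPM (268 to 308). The ratios between the outer tertiles were 3.57 (3.38 to 3.78) for Pax2, 2.67 (2.53 to 2.82) for Sim1, 2.28 (2.08 to 2.501) for Pax8 and 0.299 (0.277 to 0.323) for Tfcp2l1. Mecom, at 5561, 5649 and 5685 CPM, and Tfap2b, at 577, 643 and 624 CPM, had ratios of 1.02 (1.00 to 1.04) and 1.08 (1.01 to 1.16). The most medullary tertile of TAL-α stood above medullary TAL-γ as a whole for Pax2 (1375 CPM), Sim1 (1208 CPM) and Pax8 (365 CPM). For Tfcp2l1 it stood below that class (346 CPM). The class ratios in medulla therefore do not separate class from place in this order.

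The most cortical tertile of medullary TAL-α and the most cortical tertile of cortical TAL-α had similar levels of Pax2, 476 and 453 CPM with overlapping intervals, while Sim1 stood at 565 CPM (540 to 591) against 429 CPM (402 to 457). These tertiles were unlike in place, since the cortical one had a median cortex share of 84.9%. Nearest in share to the medullary one was the most medullary cortical tertile, with a median of 50%. It held Pax2 at 408 CPM (386 to 432), with no overlap, and Sim1 at 343 CPM (322 to 364). In medullary TAL-γ, ordered in the same way after the TAL-α result was seen, Pax2 stood at 1004, 1564 and 1616 CPM and Tfcp2l1 at 501, 261 and 252 CPM, with outer ratios of 1.61 (1.54 to 1.68) and 0.503 (0.459 to 0.550). Sim1 stood at 978, 1318 and 1366 CPM, a ratio of 1.40 (1.33 to 1.46), which was not called. Hnf4a had an outer ratio of 0.121 (0.0588 to 0.225) there, beside Lrp2 at 151, 71.7 and 15.9 CPM.

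In cortical TAL-α the tertiles, with median cortex shares of 84.9%, 72.1% and 50%, showed no such range of Pax2 (453, 407 and 408 CPM) or Sim1 (429, 391 and 343 CPM). Tfcp2l1 stood at 1042, 891 and 708 CPM, a ratio of 0.680 (0.641 to 0.721), just short of a call. Mecom and Tfap2b had ratios of 0.734 and 0.7645, which became 0.936 and 0.962 without barcodes carrying the markers of other segments. Hnf4a went from 23.7 to 68.5 to 130 CPM and Pax8 from 175 to 219 to 274 CPM, and Lrp2 went from 54.8 to 338 to 718 CPM beside them. When the barcodes were ordered by the medulla score genes over total counts instead, the outer ratios were 0.486 for Hnf4a and 0.900 for Pax8, on the other side of 1, and 0.972 (0.916 to 1.03) for Tfcp2l1. Without barcodes carrying the markers of other segments the outer ratios in cortex were 1.04 (0.658 to 1.64) for Hnf4a, 1.12 (0.969 to 1.30) for Pax8 and 0.813 (0.763 to 0.866) for Tfcp2l1, and no member was called. In medulla the same step left Pax2 at 3.53, Sim1 at 2.61, Pax8 at 2.51 and Tfcp2l1 at 0.293.

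**Figure D5:**
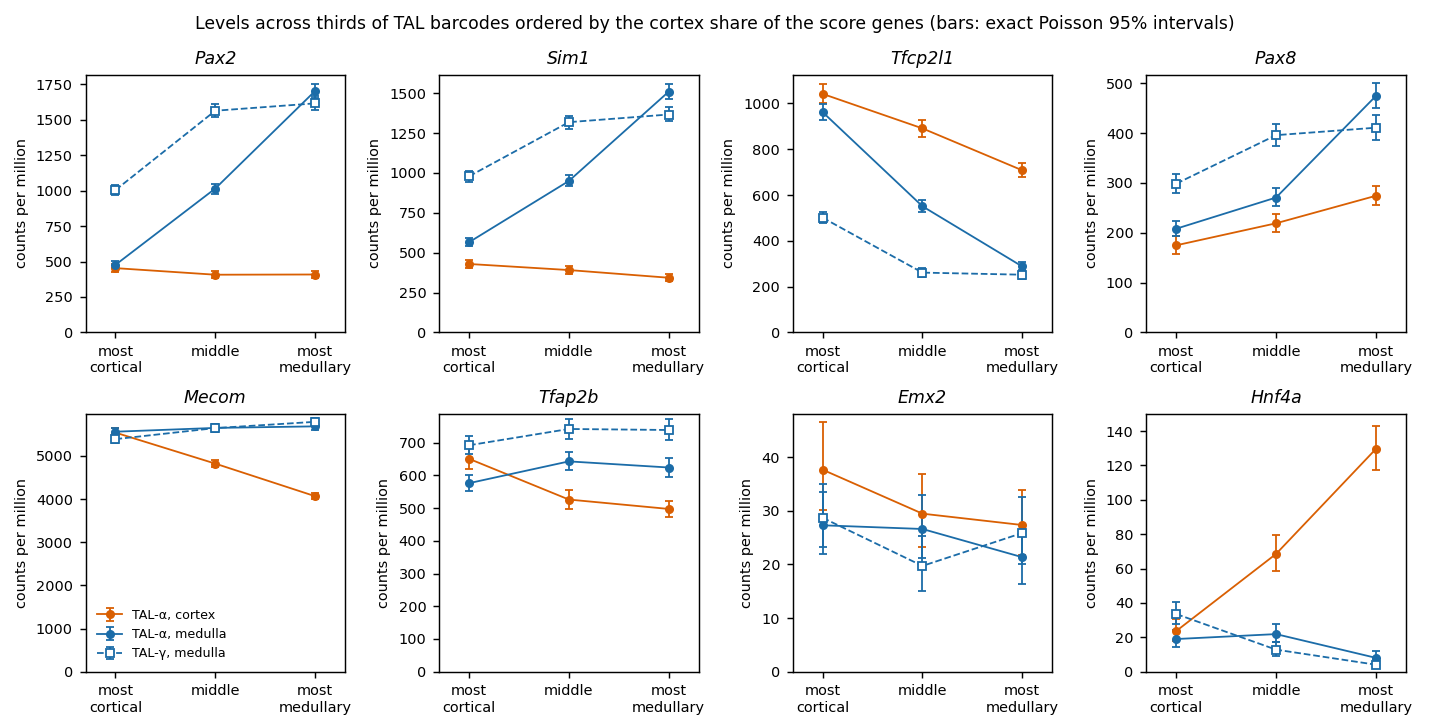
Levels in CPM (vertical axes, from 0) of the 8 factors across tertiles of barcodes ordered from most cortical to most medullary by score genes, for TAL-α in cortex (orange) and medulla (blue circles) and TAL-γ in medulla (open squares), with exact Poisson 95% intervals. In medullary TAL-α Pax2 goes from 476 to 1703 CPM and Tfcp2l1 from 962 to 288 CPM, while Mecom stays between 5561 and 5685 CPM.

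Levels were also taken over the clusters deposited with the data. Over the 12 medullary clusters dominated by TAL barcodes, Pax2 ran from 450 to 2011 CPM, Sim1 from 408 to 1828 CPM and Tfcp2l1 from 202 to 946 CPM. Over the 11 cortical ones Pax2 ran from 288 to 657 CPM, Sim1 from 244 to 875 CPM and Tfcp2l1 from 412 to 1134 CPM. The lowest cortical values of all 3 and the lowest medullary value of Sim1 came from clusters rich in proximal counts, with Lrp2 at 1791 CPM in the cortical and 1649 CPM in the medullary cluster. Over the cortical clusters Mecom spanned 3.02-fold and Tfap2b 3.00-fold, against 2.28-fold for Pax2 and 3.59-fold for Sim1. The lowest Mecom and Tfap2b values, 2088 and 269 CPM, came from the same proximal-rich cluster. Hnf4a ran from 1.72 to 284 CPM over the cortical clusters, with a median of 13.4 CPM, and from 0 to 263 CPM over the medullary clusters, with a median of 3.89 CPM.

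For each member the genes most like it were ranked by Pearson's r of log2(CPM + 1) over the 10 groups of at least 50 barcodes, TAL and proximal, among 12308 genes. Tfap2b was most like Ppp2r2b (r = 0.998), Grhl2 (0.998) and Mecom (0.997), and Mecom was most like Grhl2 (0.998), Tacc1 (0.998) and Tfap2b. Pax2 was most like Lmo7 (0.986), Fam117a and Hnrnpr, and Sim1 most like Bbof1 (0.989), Epcam and Plcb4. Hoxd8 (0.988) and Flvcr1 were among the genes most like Tfcp2l1, and Pax8 was most like Galnt1 (0.975), Pcgf5 and Ccdc50. Hnf4a was most like Akr1c21 (0.997), Gm39079 and Clic5, and Emx2 most like Gli2 (0.968), Runx1t1 and Gm37864. The 10 groups come from 2 libraries, and the gap between TAL and proximal levels carries much of these values. Over the 8 TAL groups alone, r was 0.845 between Pax2 and Sim1, 0.860 between Pax2 and Pax8, and -0.783, -0.868 and -0.808 between Tfcp2l1 and Pax2, Pax8 and Sim1. The largest r of any member pair there was 0.892, between the low-count genes Hnf4a and Emx2. Mecom had r of 0.753 with Pax2 and 0.757 with Sim1, so the pairs named first are a selection.

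Beside the members, a list of 44 other nephron transcription factors was followed, of which 23 to 33 had at least 50 counts in a given comparison. The list was chosen with earlier results of these data known. In cortex 14 of 32 were called for TAL-β against TAL-α (7 higher and 7 lower), beside 8.07% of all genes. For MD against TAL-α it was 16 of 30, beside 19.5%, and for TAL-γ against TAL-α 10 of 30, beside 8.29%. In medulla 13 of 29, 5 of 30 and 11 of 27 were called for TAL-β, TAL-γ and MD barcodes against TAL-α, beside 9.87%, 6.7% and 16.8%. TAL-β against TAL-γ gave 4 of 32 in cortex, beside 5.46%, and 11 of 28 in medulla, beside 13.8%. TAL against proximal barcodes gave 24 of 33 in cortex, beside 27.7%, and 21 of 30 in medulla, beside 34.9%. Of the Iroquois genes, homeobox factors of nephron segmentation, Irx3 and Irx1 differed between TAL-α and the barcodes placed in TAL-β and TAL-γ. Irx3 was higher in TAL-β than in TAL-α by 6.34-fold (4.40 to 9.34) in cortex and 9.45-fold (5.72 to 15.9) in medulla, while Irx1 had ratios of 0.141 (0.105 to 0.185) and 0.0912 (0.0453 to 0.164) and Irx2 of 0.184 and 0.164. In TAL-γ over TAL-α Irx3 was 7.05 and 6.41, and Irx1 0.223 and 0.421. The cortical values, given first, come from barcodes that carry the name TAL-γ by the rule alone. The part of the place between cortex and medulla in these ratios was not tested. Sim2, the paralogue of Sim1, was lower in MD than in TAL-α barcodes, with ratios of 0.227 (0.163 to 0.308) in cortex and 0.153 (0.0497 to 0.358) in medulla, as was the orphan receptor gene Esrrb, with ratios of 0.262 and 0.149.

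Between regions, 10 of 31 of these factors were called in TAL-α, beside 20.1% of all genes, and 15 of 32 in TAL-β, beside 16.1%. In TAL-γ it was 14 of 28, beside 20.8%, and in MD barcodes 5 of 23, beside 8.24%. Prox1, a homeobox factor, was higher in medulla by 5.54-fold (4.74 to 6.50) in TAL-α, and Lhx1, a LIM homeobox factor of early nephrons, was lower, with a ratio of 0.132 in TAL-α. Maf and Hnf4g, which like Hnf4a were higher in proximal barcodes, were lower in medullary TAL-α, with ratios of 0.186 (0.161 to 0.214) and 0.228 (0.191 to 0.273). TAL over proximal ratios in cortex were 0.225 for Maf and 0.166 for Hnf4g, near the 0.203 of Hnf4a.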

How the data were processed

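Single-nucleus 3′ RNA counts were measured in 1 cortex and 1 medulla library. The deposited values are raw counts of molecules per gene and barcode, which the authors made with PIPseeker on GRCm39. Per the labels, the processing notes also name bcl2fastq and Seurat 4.4.0. The count tables used here were not normalized before deposit. The strand setting is not given in the sources used here, and the reference version is named by its year alone.

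The filtered tables were read with Python 3.11.15. Counts were summed per class and library and given as CPM of the sum, with exact Poisson 95% intervals. Ratios had conditional binomial intervals and shares exact Clopper-Pearson ones, and all of them cover counting error only. Groups under 50 barcodes gave no ratio, and percentages over all genes used genes with at least 50 counts in the 2 groups. No doublets were removed; the top 5% of Scrublet scores were left out as an alternative. In 3 cortical barcodes that met both the proximal and the DCT rule, and in 118 cortical and 51 medullary barcodes that met none, no class was given. The ratio and its call were run on simulated Poisson counts with known fold changes, which is the model that the intervals assume. That simulation held no spread between nuclei or libraries and no mixed barcodes, so it checks the calculation alone.

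The members, gene lists and comparisons were chosen with earlier results of these data known. The text names all members, of the fixed list of other factors at most the 4 called genes with the largest ratio in a comparison (given also for the other library), the 3 genes most like each member (1 of them is not reported here), and class markers. Alternatives changed the Slc12a1 minimum to 5 or 20, the class thresholds and genes, the cell filters, the scaling (TMM, edgeR 4.0.16) and the barcodes carrying other segments' markers.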

Additional observations from a re-analysis of the deposited data

Results flagged for a closer look

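In 6 cases a factor's class ratio lay on opposite sides of 1 in the 2 libraries with neither interval reaching 1, and in none was the difference between the libraries itself tested, since each region is 1 library. For MD over TAL-α, Pax2 had a ratio of 1.221 in cortex and 0.6019 in medulla, and Sim1 had 1.102 and 0.5889. For TAL-β over TAL-α, Sim1 had 1.586 in cortex and 0.8273 in medulla, and Tfcp2l1 had 0.7736 and 1.083. For TAL-β over TAL-γ, Sim1 had 1.117 in cortex and 0.6723 in medulla, and Mecom had 1.126 and 0.9593. With classes set by other genes the opposite directions were lost for Tfcp2l1, at 1.143 in cortex, and for Mecom, at 1.182 in medulla. The MD ratios in medulla were not run with those classes, which left 32 MD barcodes there. With TMM-scaled totals Sim1 for MD over TAL-α in cortex was 1.018. The TAL-β over TAL-γ cases rest on the TAL-γ groups of the 2 libraries, which were unlike in their TAL-β markers. The cortical Sim1 ratio of TAL-β over TAL-α and both medullary MD over TAL-α ratios passed 1.5-fold, and the other values did not.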

How the results depend on the processing

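No paired analysis was possible because each region has 1 library. Of 165 counts of called members recomputed under the alternatives, 133 stayed within 1.5 times their value and 32 moved, none with a reversal. For TMM, the calls over all genes are given above for some comparisons. The share of all genes called is not given for the other alternatives, so their counts below cannot be set beside it. In cortex, TAL-β against TAL-α gave 2 called members with marker counts scaled to one depth, 4 with classes from other genes and 3 with the deposited clusters. TAL-γ against TAL-α gave 1 without the highest Scrublet scores, with scaled marker counts and with TMM, 2 without barcodes carrying other segments' markers under either rule, and 3 with stricter thresholds. MD against TAL-α gave 1 without other segments' barcodes, with stricter thresholds, scaled marker counts, classes from other genes and deposited clusters. TAL-β against TAL-γ gave 1 with stricter thresholds and scaled marker counts and 6 with classes from other genes. In medulla, TAL-β against TAL-α gave 3 with scaled marker counts, 4 with classes from other genes and 3 with deposited clusters, TAL-γ against TAL-α gave 2 with scaled marker counts and with deposited clusters, and MD against TAL-α gave 1 with at least 20 Slc12a1 counts. Between regions, TAL-α gave 5 without other segments' barcodes under either rule, TAL-β gave 2 with classes from other genes and 0 with deposited clusters, and MD gave 0 without other segments' barcodes under either rule and with deposited clusters. Between the outer tertiles of cortical TAL-α, 1 member was called with the medulla score genes over total counts and 0 without other segments' barcodes. With the former order the Hnf4a ratio reversed to 0.4858 and that of Pax8 to 0.9001; the cause was not tested. Of 1208 recomputed ratios of single members, 916 stayed inside the interval of the reported value, 290 moved past it and 2 reversed, where a reversal was counted only for a called ratio. A further 120 that were not called as reported also crossed 1, in 22 of them with neither interval holding 1, for example Hnf4a for TAL-β over TAL-α in cortex (1.24 as reported, 0.0954 with deposited clusters) and Tfcp2l1 there (0.774, and 1.14 with classes from other genes). With the latter classes Tfcp2l1 for TAL-γ over TAL-α in medulla lost its call at 0.794. The medulla over cortex ratio of Pax2 ranged over the alternatives from 2.29 to 3.05 in TAL-α and from 2.22 to 3.37 in TAL-γ, that of Sim1 from 2.27 to 3.46 and from 1.82 to 2.91, and that of Tfcp2l1 in TAL-γ from 0.498 to 0.708, past the call's limit with classes from other genes. Comparisons with TAL-γ in cortex under the deposited clusters (0 barcodes) and with MD in medulla under classes from other genes (32 barcodes) were not run. The rule that keeps only TAL barcodes with 0 Lrp2 and Cubn counts and at most 1 Slc12a3 count was chosen after the data were seen. The 78 medullary MD barcodes and the low counts of Emx2 and Hnf4a limit what can be seen in those groups.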

Other observations

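The barcodes that met no class rule carried all 8 factors. The 118 cortical ones held Hnf4a at 180 CPM (137 to 234), Pax8 at 377 CPM (312 to 451), Tfap2b at 320 CPM (260 to 388) and Mecom at 3164 CPM (2971 to 3366). The 51 medullary ones held Pax2 at 1182 CPM (991 to 1398), Pax8 at 712 CPM (567 to 884), Tfap2b at 165 CPM (99.4 to 258) and Sim1 at 400 CPM (293 to 533). Of the TAL barcodes, 14.5% in cortex had 1 or 2 counts of Tmem52b, next to the minimum for TAL-β, and 15.7% in medulla had 1 or 2 counts of Tmem207 and Gpc5 together, next to that for TAL-γ.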
